A study of Mus musculus with 4 samples.

Results

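Cyp1a1, Cyp1b1, Ahr, Ahrr and Tiparp, 5 of the 32285 genes in the count tables, were followed across the cell classes of mouse lung. They were chosen by name around the aryl hydrocarbon receptor, because Cyp1a1 was already known to differ between these libraries. Single-cell RNA sequencing had been done on lungs of male C57BL/6 wild-type mice aged 6 to 7 weeks in 4 libraries, 1 for each group. In LPS+RT, mice received 200 µg of lipopolysaccharide from Escherichia coli (LPS, which provokes acute inflammation of the lung) into the trachea and 1 Gy of X-rays to the thorax on the next day. In LPS they received the same LPS without irradiation, in PBS+RT 100 µL of phosphate-buffered saline (PBS) and the same irradiation, and in PBS the saline alone. The time point was 48 hours from the injection and 24 hours from the irradiation, and the dissociated cells were enriched for mononuclear cells on Ficoll. The number of mice behind a library is not stated in the labels.

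The aryl hydrocarbon receptor is a ligand-activated transcription factor that waits in the cytoplasm in a complex with heat shock protein 90 and is known to move to the nucleus when it binds an environmental or dietary aromatic compound or a tryptophan metabolite. There it pairs with the Arnt protein and binds a short DNA element, the xenobiotic response element, before its target genes. Cyp1a1 and Cyp1b1 encode cytochrome P450 enzymes that oxidise the ligands, Ahrr encodes a repressor that competes with the receptor, and Tiparp encodes an ADP-ribosyltransferase that limits receptor activity. Cyp1a1 in lung endothelium is a classical readout of the pathway.

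The promoters of Cyp1a1, Tiparp and Ahrr are shown because all 3 carry the core of that element, although the genes had unlike levels in these libraries. The stretches are the 250 bases before the RefSeq start on GRCm38.p6, 5' to 3' on the gene's own strand, at chr9:57697363-57697612 (+) for Cyp1a1, chr3:65528197-65528446 (+) for Tiparp and chr13:74292332-74292581 (-) for Ahrr. Capitals mark the core GCGTG or its reverse complement CACGC.
Cyp1a1: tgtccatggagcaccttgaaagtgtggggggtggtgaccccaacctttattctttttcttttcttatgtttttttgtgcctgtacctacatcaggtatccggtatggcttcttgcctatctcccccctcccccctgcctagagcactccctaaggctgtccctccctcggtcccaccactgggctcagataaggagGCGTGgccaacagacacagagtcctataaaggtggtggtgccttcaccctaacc
Tiparp: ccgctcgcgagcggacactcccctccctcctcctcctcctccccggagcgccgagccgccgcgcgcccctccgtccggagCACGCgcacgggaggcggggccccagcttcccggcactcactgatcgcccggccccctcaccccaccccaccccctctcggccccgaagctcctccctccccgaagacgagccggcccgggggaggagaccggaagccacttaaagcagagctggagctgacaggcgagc
Ahrr: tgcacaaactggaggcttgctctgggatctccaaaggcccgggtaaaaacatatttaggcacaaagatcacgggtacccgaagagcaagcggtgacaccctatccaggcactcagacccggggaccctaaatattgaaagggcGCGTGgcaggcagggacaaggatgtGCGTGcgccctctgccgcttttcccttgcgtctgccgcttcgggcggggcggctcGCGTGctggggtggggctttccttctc
Windows of 300 bases (250 before and 50 after the start) were found for 4 of the 5 genes. Cyp1a1, Cyp1b1 and Tiparp held the core 1 time each and Ahrr 3 times. Of all 32851 such windows, 32.4% held it at least 1 time and 3.91% at least 3 times. In Cyp1a1 the core began 54 bases before the start, in Tiparp 170 bases and in Cyp1b1 76 bases before it. A match of 5 letters is a description of the DNA and not a binding site.

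On mm10 with GENCODE M21, Cyp1a1 (ENSMUSG00000032315) spans chromosome 9 from 57687928 to 57703824 on the plus strand, so that the RefSeq start lies inside the annotated gene. Tiparp (ENSMUSG00000034640) spans chromosome 3 from 65528410 to 65555518 on the plus strand. Ahr (ENSMUSG00000019256) spans chromosome 12 from 35497974 to 35535038, Ahrr (ENSMUSG00000021575) chromosome 13 from 74211118 to 74292331 and Cyp1b1 (ENSMUSG00000024087) chromosome 17 from 79701537 to 79715061, these 3 on the minus strand. The gene Gm48236 overlaps Ahr on the opposite strand and had 481 UMIs in all cells. The counting strand is not given in the sources used here.

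The libraries held 6235 to 9675 cells after filtering, with medians of 4284 UMIs per cell in LPS+RT, 5570 in LPS, 8572 in PBS+RT and 4282 in PBS (a UMI, or unique molecular identifier, marks 1 captured RNA molecule). Cells were clustered without the 5 genes, and clusters were named from marker genes as "-like". Endothelial-like cells numbered 1865, 649, 2111 and 2077 in LPS+RT, LPS, PBS+RT and PBS. The endothelial marker Pecam1 was at 1009, 1301, 1100 and 1061 CPM in them and Cldn5 at 2976, 2690, 1902 and 3504 CPM, where CPM scales the UMIs of a gene to the UMI total of its class. Of 15 endothelial markers, 9 were highest in PBS. The most lowered marker was Ramp2, 1.90-fold lower in LPS than in PBS and 1.89-fold lower in PBS+RT than in PBS. Since each group is a single library, no difference could be checked against replicates and none was tested. Brackets hold exact 95% intervals, which take in counting error and nothing else. A gene was called where its libraries differed by at least 1.5-fold, the higher one reached 5 CPM and both together held 20 UMIs. The libraries also differed with gene length. Among endothelial-like cells, with genes divided into 4 equal groups by length, the median log2 ratio of PBS+RT over PBS was -0.48 in the shortest group and 0.38 in the longest.

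In endothelial-like cells Cyp1a1 had 46 UMIs in LPS+RT (3.67 CPM, 2.68 to 4.89), 42 in LPS (8.08 CPM, 5.83 to 10.9), 285 in PBS+RT (13.7 CPM, 12.2 to 15.4) and 3028 in PBS (219 CPM, 212 to 227). PBS stood alone at the top, and none of the 4 intervals overlapped another. Cyp1a1 was therefore lower in each treated library. It was 27.1-fold lower in LPS than in PBS (20.0 to 37.7) and 15.99-fold lower in PBS+RT than in PBS (14.2 to 18.1). Where both lungs were irradiated it was 3.74-fold lower in LPS+RT than in PBS+RT (2.73 to 5.23), and it was 2.20-fold lower in LPS+RT than in LPS (1.42 to 3.42). The first 2 of these comparisons share the PBS library.

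Cyp1a1, Ahr and Tiparp, 3 of the 5 genes, passed the expression limit in endothelial-like cells. Cyp1a1 was lower by the call rule in all 4 comparisons, and it was the only one of the 5 genes called there in any of them. Of all measured genes, 10.2% were called lower in LPS against PBS, 6.96% in LPS+RT against PBS+RT, 15% in PBS+RT against PBS and 8.65% in LPS+RT against LPS, and nothing is read from the Cyp1a1 call, since the gene was chosen for this difference. Ordered from the lowest ratio, Cyp1a1 stood at place 5 of 10990 genes in LPS over PBS, 14 of 10817 in LPS+RT over PBS+RT, 2 of 10835 in PBS+RT over PBS and 223 of 10929 in LPS+RT over LPS. Among 10469 genes, Cyp1a1 was the one that stood at least 4-fold higher in PBS than in each of the other 3 libraries, and the next gene was the platelet chemokine gene Ppbp at 3.39-fold. By its annotated span of 15897 bases, Cyp1a1 fell in a length group with medians of -0.11, 0.05, -0.18 and 0.00 on the log2 scale in the 4 comparisons. The order is LPS over PBS, LPS+RT over PBS+RT, PBS+RT over PBS and LPS+RT over LPS. Measured from the RefSeq start inside that span, Cyp1a1 would fall in the shortest group, with medians of -0.33, 0.31, -0.48 and 0.16.

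**Figure D1:**
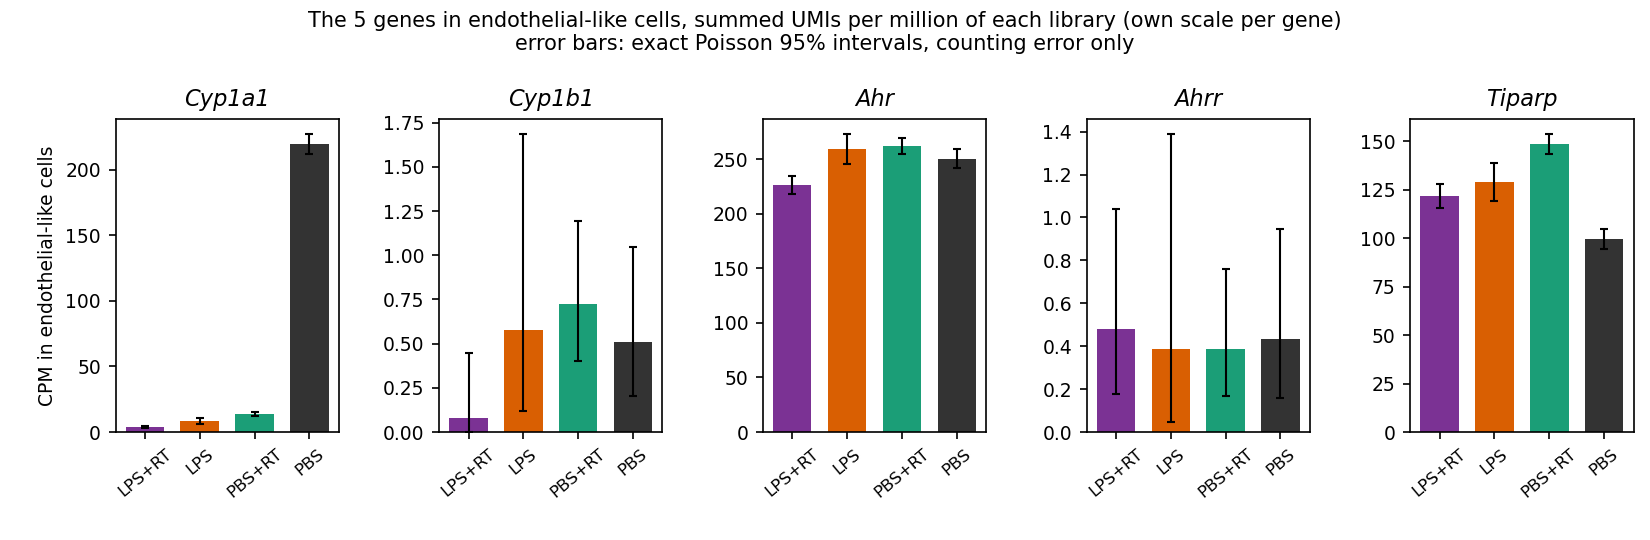
Levels of the 5 genes in endothelial-like cells, as CPM of the class in each library, with exact Poisson 95% intervals as error bars and a scale of its own for each gene. Cyp1a1 stood at 219 CPM in PBS and at 13.7 CPM or less in the other libraries, Ahr between 227 and 262 CPM in all 4, and Tiparp was lowest in PBS.

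The Cyp1a1 RNA of the PBS library came from many endothelial-like cells. At least 1 Cyp1a1 UMI was found in 1.55% of them in LPS+RT, 3.54% in LPS, 8.15% in PBS+RT and 32.9% in PBS, at median depths of 6014, 7288, 9333 and 6013 UMIs. With each cell thinned to 2000 UMIs, which kept 1753, 620, 2075 and 1940 cells, the shares were 0.685%, 1.45%, 2.80% and 21.5%. In B cell-like cells of PBS, given for comparison, 1.96% of 562 cells had a UMI at a median depth of 5487 (0.933% when thinned). In LPS+RT, LPS and PBS+RT, 0 of 463, 445 and 394 B cell-like cells had a UMI, which allows shares of up to 0.648%, 0.674% and 0.761%. In PBS, 10.2% of the endothelial-like cells had 5 or more Cyp1a1 UMIs and the highest cell had 46, against 7 or fewer in every cell of the other libraries. The 208 PBS cells with the most held 67.9% of the Cyp1a1 UMIs.

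Endothelial-like cells fell into 3 subclasses. Aerocyte-like cells, the wide thin capillary cells that face the air sacs, had Cyp1a1 at 2.61 CPM in LPS+RT, 7.16 in LPS, 18.9 in PBS+RT and 394 in PBS. General capillary-like cells had 3.43, 6.11, 9.11 and 139 CPM in the same libraries. Large vessel-like cells, marked by Vwf, had 10.5, 49.8, 43.2 and 188 CPM, with 132, 26, 140 and 144 cells. PBS was the highest library in each subclass, and in PBS the aerocyte-like cells were the highest subclass.

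Against PBS, Cyp1a1 in LPS was 55.04-fold lower in aerocyte-like cells (29.9 to 115), 22.7-fold lower in general capillary-like cells (14.9 to 36.4) and 3.79-fold lower in large vessel-like cells (2.01 to 8.04). In PBS+RT it was 20.8-fold (16.9 to 25.9), 15.3-fold (12.7 to 18.4) and 4.36-fold lower (3.22 to 5.98) than in PBS, in the same order of subclasses. In both comparisons the interval of the large vessel-like cells lay clear of those of the other 2 subclasses. The LPS values rest on few cells. The aerocyte-like and the large vessel-like cells of LPS had 10 Cyp1a1 UMIs each, of which 7 were in 1 cell. In LPS+RT against PBS+RT the folds were 7.25 lower (3.77 to 15.6) in aerocyte-like, 2.65 lower (1.74 to 4.18) in general capillary-like and 4.10 lower (2.02 to 9.41) in large vessel-like cells, with overlapping intervals. Aerocyte-like cells made up 20.6%, 19.1%, 17.9% and 21.2% of endothelial-like cells in LPS+RT, LPS, PBS+RT and PBS, general capillary-like cells 72.3%, 76.9%, 75.5% and 71.8%, and large vessel-like cells 7.08%, 4.01% (2.63 to 5.82), 6.63% and 6.93% (5.88 to 8.11). The libraries also differed in their make-up by cluster. Of the 2 largest general capillary-like clusters, cluster 1 (Gpihbp1 and Tm4sf1 at the top) held 621, 132, 289 and 969 cells and cluster 6 (Adamts9 and Iigp1 at the top) 453, 233, 912 and 230. Cyp1a1 was highest in PBS in both. Within cluster 1 it was at 4.16, 7.96, 7.31 and 149 CPM, and within cluster 6 at 3.21, 6.54, 9.16 and 126 CPM. Clusters 0 and 2 carried endothelial markers but were left out of the class, since cluster 0 had few UMIs and cluster 2 also carried alveolar type 1 markers, and PBS was the highest library for Cyp1a1 in them too (90.4 and 154 CPM).

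**Figure D2:**
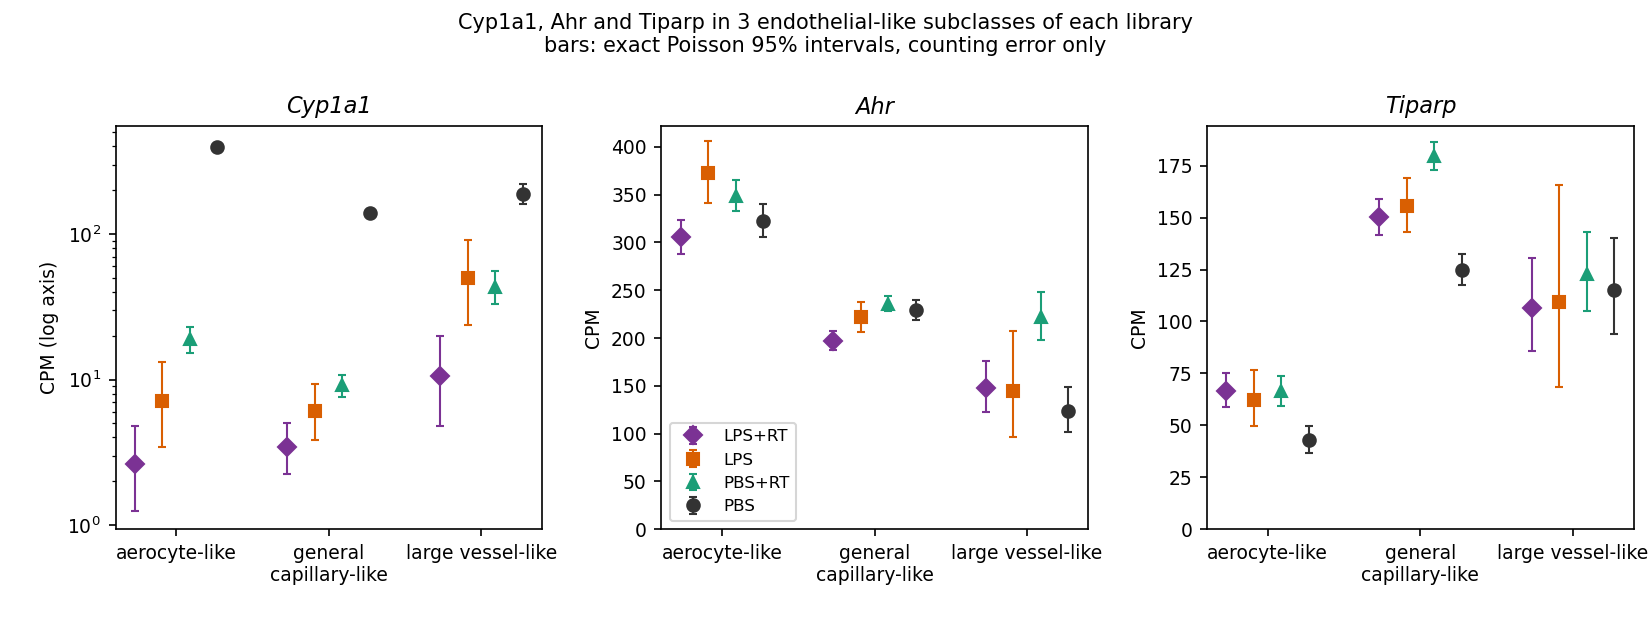
Cyp1a1 (log axis), Ahr and Tiparp in CPM in aerocyte-like, general capillary-like and large vessel-like endothelial cells of each library, with exact Poisson 95% intervals. The PBS points of Cyp1a1 stand above the other libraries in each subclass, at 394, 139 and 188 CPM, while those of Tiparp are lowest in the first 2 subclasses.

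Outside blood endothelium Cyp1a1 was low. In PBS it was at 48.6 CPM in pericyte or smooth muscle-like cells, 17.8 CPM in the alveolar type 1-like class, 15.7 in the classical monocyte-like, 13.9 in the alveolar type 2-like, 12.7 in the fibroblast-like and 2.26 in the alveolar macrophage-like class. The pericyte or smooth muscle-like value rests on 22 UMIs in 5 of 53 cells, and the alveolar type 2-like value on 11 UMIs in 4 of 179 cells. In LPS+RT Cyp1a1 had 1 UMI outside endothelial-like cells among the named classes, in alveolar macrophage-like cells. In fibroblast-like cells it had 0, 2, 3 and 87 UMIs in LPS+RT, LPS, PBS+RT and PBS, 31.5-fold lower in PBS+RT than in PBS (10.4 to 156).

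**Figure D3:**
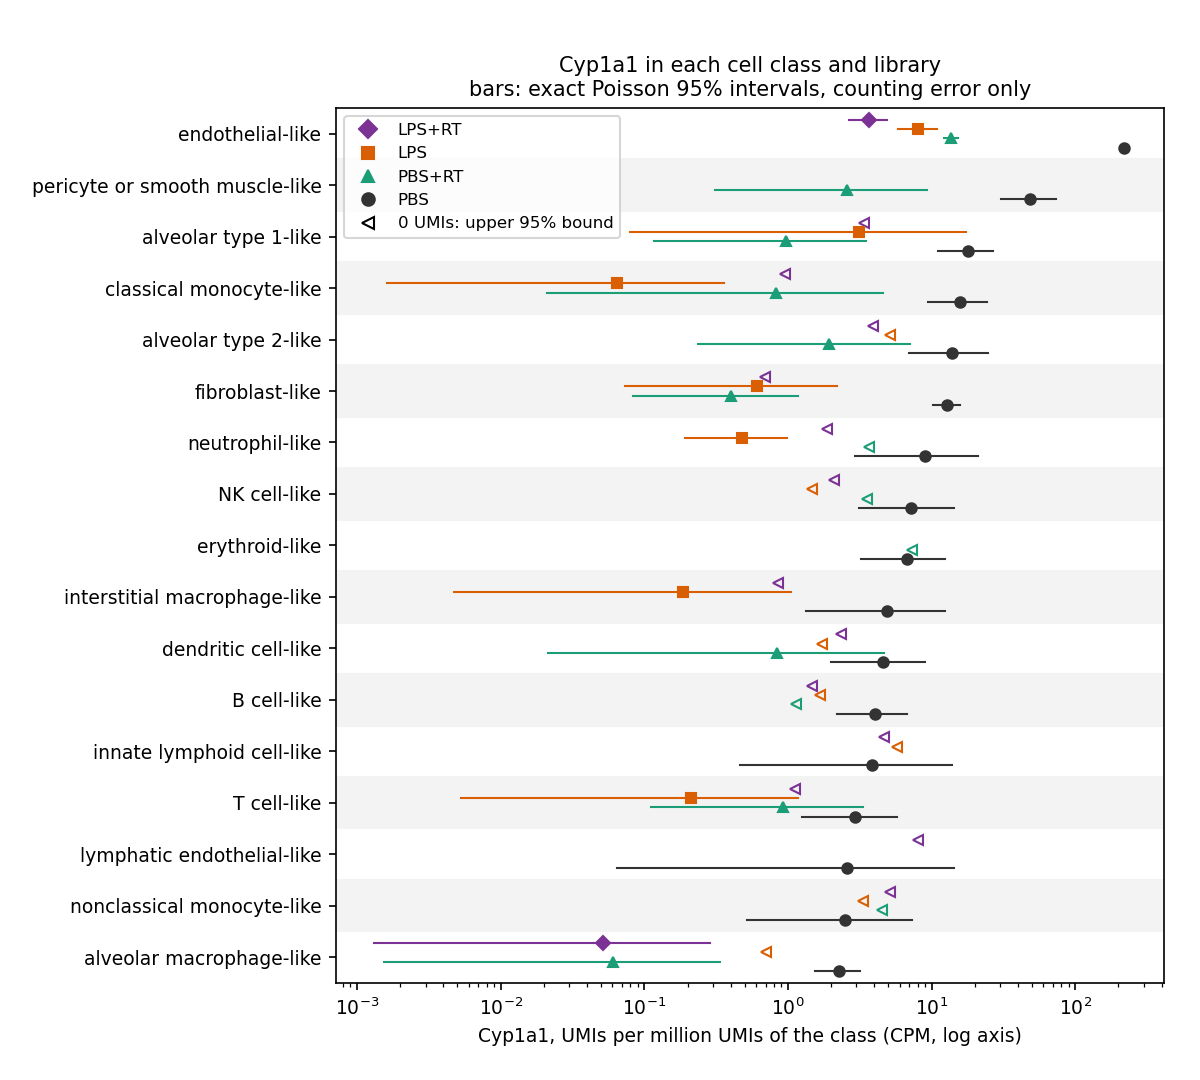
Cyp1a1 in CPM (log axis) in each cell class with at least 50 cells, by library, with exact Poisson 95% intervals and open triangles at the upper bound where no UMI was counted. PBS is the highest library in each class where Cyp1a1 was counted, and endothelial-like cells at 219 CPM are the highest class.

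Free RNA of other cells gives UMIs in droplets, so the PBS values were set beside endothelial marker RNA in the same cells. In PBS the summed endothelial markers of alveolar type 1-like cells were 14.8% of their endothelial level and Cyp1a1 was 8.12% of its own. In pericyte or smooth muscle-like cells the shares were 20.2% and 22.1%, in fibroblast-like cells 7.02% and 5.80%, and in alveolar macrophage-like cells 1.23% and 1.03%. Over the 14 classes other than classical monocyte-like and lymphatic endothelial-like cells, the share of Cyp1a1 was 0.342 to 1.12 times that of the markers. The part of free RNA in these values was not tested. Classical monocyte-like cells were apart, with markers at 2.04% and Cyp1a1 at 7.15% (4.31 to 11.2), from 19 UMIs in 10 of 89 cells. Lymphatic endothelial-like cells, which carry many of the same markers (34.2%), had 1 Cyp1a1 UMI in 76 cells, or 1.17% (0.03 to 6.51).

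**Figure D4:**
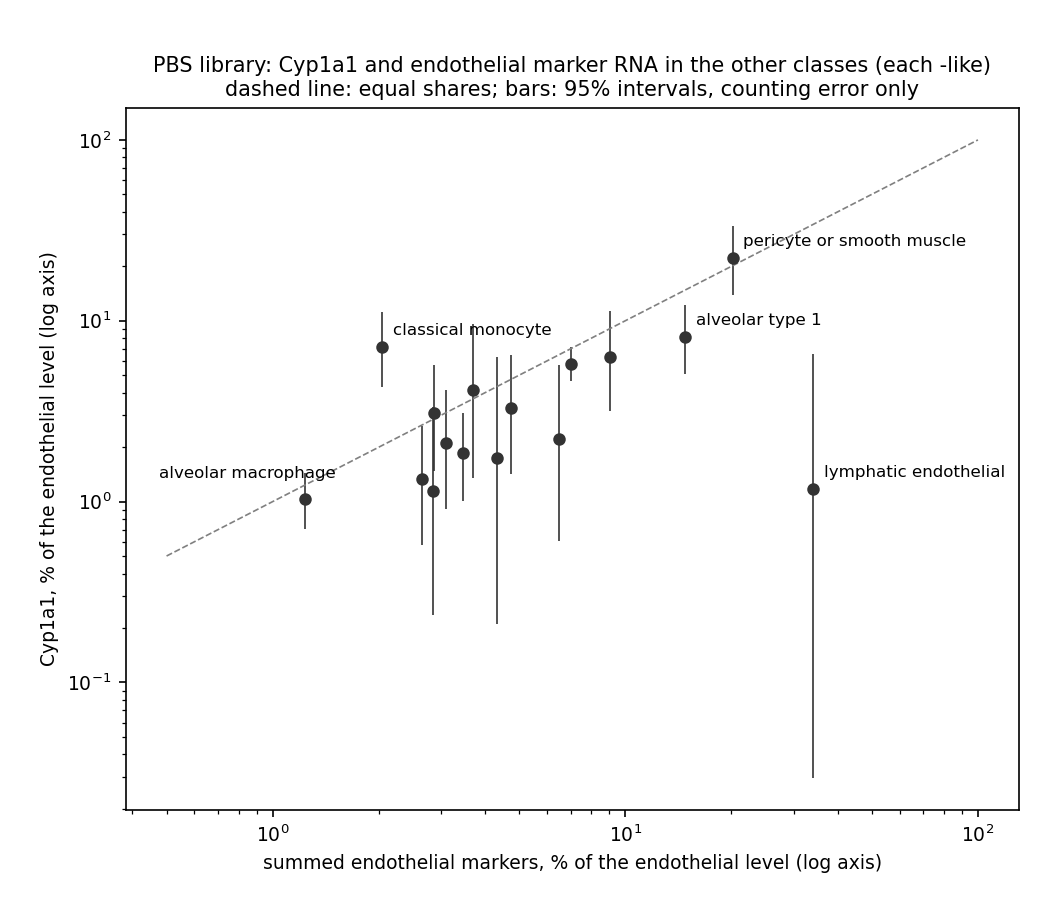
Each point is a cell class of the PBS library other than endothelial-like, with its summed endothelial markers (x) and its Cyp1a1 (y), both as percent of the endothelial-like level on log axes, with 95% intervals for Cyp1a1. Points near the dashed line hold both in equal shares, classical monocyte-like cells lie above it and lymphatic endothelial-like cells below it, and unlabelled points are the other classes.

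Ahr, the receptor itself, had no such difference in endothelial-like cells. It was at 227 CPM in LPS+RT (218 to 235), 259 in LPS (246 to 274), 262 in PBS+RT (255 to 269) and 251 in PBS (242 to 259). LPS+RT was the lowest library and the other 3 intervals overlapped. The log2 ratio was 0.05 in LPS over PBS (-0.04 to 0.14), -0.21 in LPS+RT over PBS+RT (-0.28 to -0.14), 0.07 in PBS+RT over PBS (0.00 to 0.13) and -0.19 in LPS+RT over LPS (-0.29 to -0.10), each far under the 1.5-fold limit. The genes of its length group had medians of 0.06, -0.15, 0.09 and -0.12 in these comparisons, and the part of this trend in the Ahr and Tiparp ratios was not tested. Aerocyte-like cells had the most Ahr in each library (305, 373, 349 and 323 CPM in LPS+RT, LPS, PBS+RT and PBS). In large vessel-like cells Ahr was at 147 and 144 CPM in LPS+RT and LPS, 222 in PBS+RT and 123 in PBS, 1.80-fold higher in PBS+RT than in PBS (1.44 to 2.26).

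Tiparp, a receptor target that also answers to other signals, ran the other way from Cyp1a1 in PBS. In endothelial-like cells it was at 122 CPM in LPS+RT (116 to 128), 129 in LPS (119 to 139), 149 in PBS+RT (143 to 154) and 99.5 in PBS (94.3 to 105). PBS was the lowest library and PBS+RT the highest, and the intervals of LPS+RT and LPS overlapped. Tiparp was 1.29-fold higher in LPS than in PBS (1.18 to 1.42) and 1.49-fold higher in PBS+RT than in PBS (1.40 to 1.59), just under the limit of a call. It was 1.22-fold lower in LPS+RT than in PBS+RT (1.15 to 1.30), and its ratio of LPS+RT over LPS was 0.945 (0.863 to 1.04). Aerocyte-like cells had less Tiparp (66.6, 62.3, 66.4 and 42.8 CPM in LPS+RT, LPS, PBS+RT and PBS) than general capillary-like cells (150, 156, 180 and 125 CPM). For Cyp1a1 the aerocyte-like cells were the highest subclass in PBS only.

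The Tiparp ratios depended on 1 cluster. Cluster 6 had the highest Tiparp levels, at 167, 208, 201 and 149 CPM in LPS+RT, LPS, PBS+RT and PBS, and different shares of the libraries. Without it the log2 ratio was -0.11 in place of 0.37 in LPS over PBS, 0.25 in place of 0.58 in PBS+RT over PBS, -0.046 in place of -0.29 in LPS+RT over PBS+RT and 0.32 in place of -0.08 in LPS+RT over LPS. Within clusters, Tiparp was higher in PBS+RT than in PBS in clusters 1, 6 and 9 (log2 ratios of 0.58, 0.43 and 0.63), while cluster 10 had -0.33 and cluster 31 had 0.01. RNA of neutrophils, in which Tiparp is high, was more abundant in LPS. S100a8 in endothelial-like cells of LPS was at 1.09% of its neutrophil level, a share that corresponds to 6.25 CPM of Tiparp.

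Cyp1b1 and Ahrr were close to the detection limit in endothelial-like cells. Cyp1b1 had 1, 3, 15 and 7 UMIs in LPS+RT, LPS, PBS+RT and PBS, or 0.08, 0.58, 0.72 and 0.51 CPM. Ahrr had 6, 2, 8 and 6 UMIs, or 0.48, 0.38, 0.39 and 0.43 CPM. Both stood under the expression limit in all 4 libraries. Cyp1b1 was 9.06-fold lower in LPS+RT than in PBS+RT, with an interval clear of 1 (1.39 to 382) that rests on 1 against 15 UMIs, while its intervals in LPS over PBS (0.190 to 4.99) and PBS+RT over PBS (0.547 to 4.13) held 1. Ahrr differences were not detectable at this depth, with intervals that held 1 in each comparison. Cyp1b1 in PBS was at most 1.05 CPM by its interval, and Ahrr at most 0.95 CPM.

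Single PBS cells were also compared by whether they held a Cyp1a1 UMI after thinning, 418 with and 1522 without. Ahr was at 260 CPM in those with and 237 CPM in those without, a ratio of 1.10 (0.94 to 1.28). Tiparp was at 81.3 and 107 CPM, 1.32-fold lower in cells with a Cyp1a1 UMI (1.01 to 1.74). Within general capillary-like cells the Tiparp values were 106 and 121 CPM with an interval of the ratio that includes 1 (0.64 to 1.18). Within aerocyte-like cells they were 25 and 53.1 CPM (ratio 0.47, 0.175 to 1.09), and within large vessel-like cells 152 and 106 CPM (1.44, 0.51 to 3.61). Aerocyte-like cells are more often among the cells with a Cyp1a1 UMI and have less Tiparp. The part of this mixing in the pooled ratio was not tested. In PBS+RT, where 58 cells had a Cyp1a1 UMI after thinning, the pooled Tiparp ratio was 0.54 (0.26 to 0.998). These are descriptions within single libraries.

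In the other classes, Cyp1b1 was found mainly in fibroblast-like cells, at 18.6 CPM in LPS+RT, 34.4 in LPS, 30.9 in PBS+RT and 17.0 in PBS. By CPM, LPS and PBS+RT were high and LPS+RT and PBS low. The share of cells with a UMI had another order, at 9.17%, 8.13%, 13.2% and 9.29% (3.18%, 2.37%, 4.27% and 3.04% thinned), and the 113 UMIs of LPS lay in 20 of 246 cells, so no order is read from the shares. By CPM, Cyp1b1 was 2.03-fold higher in LPS than in PBS (1.55 to 2.65) and 1.82-fold higher in PBS+RT than in PBS (1.45 to 2.30), but 1.66-fold lower in LPS+RT than in PBS+RT (1.30 to 2.12) and 1.85-fold lower in LPS+RT than in LPS (1.40 to 2.44). Nearly all of it lay in cluster 25, led by Dcn and Pi16, at 76.5, 177, 106 and 47.6 CPM in LPS+RT, LPS, PBS+RT and PBS, with 86, 38, 99 and 151 cells. The same order of libraries held within that cluster. In large vessel-like cells Cyp1b1 had 1, 3, 12 and 6 UMIs. Ahrr had at most 9 UMIs in any other class of any library, in interstitial macrophage-like cells of LPS+RT.

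Ahr and Tiparp were read wherever a class held 50 cells or more in each of the libraries compared. Tiparp was higher in LPS than in PBS in 12 of 14 classes and higher in PBS+RT than in PBS in 13 of 14, while it was lower in LPS+RT than in PBS+RT in 11 of 12 and lower in LPS+RT than in LPS in 11 of 14. Intervals clear of a ratio of 1 in these directions were found in 9, 11, 8 and 8 classes. The first 2 comparisons share PBS and all classes of a library share its preparation and depth. Ahr was less uniform over classes. It was higher in LPS than in PBS in 8 of 14 and higher in PBS+RT than in PBS in 10 of 14, and lower in LPS+RT than in PBS+RT in 9 of 12 and lower in LPS+RT than in LPS in 10 of 14. Its intervals were clear of 1 in these directions in 4, 5, 7 and 6 classes, and in the opposite directions in 2, 1, 1 and 1.

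**Figure D5:**
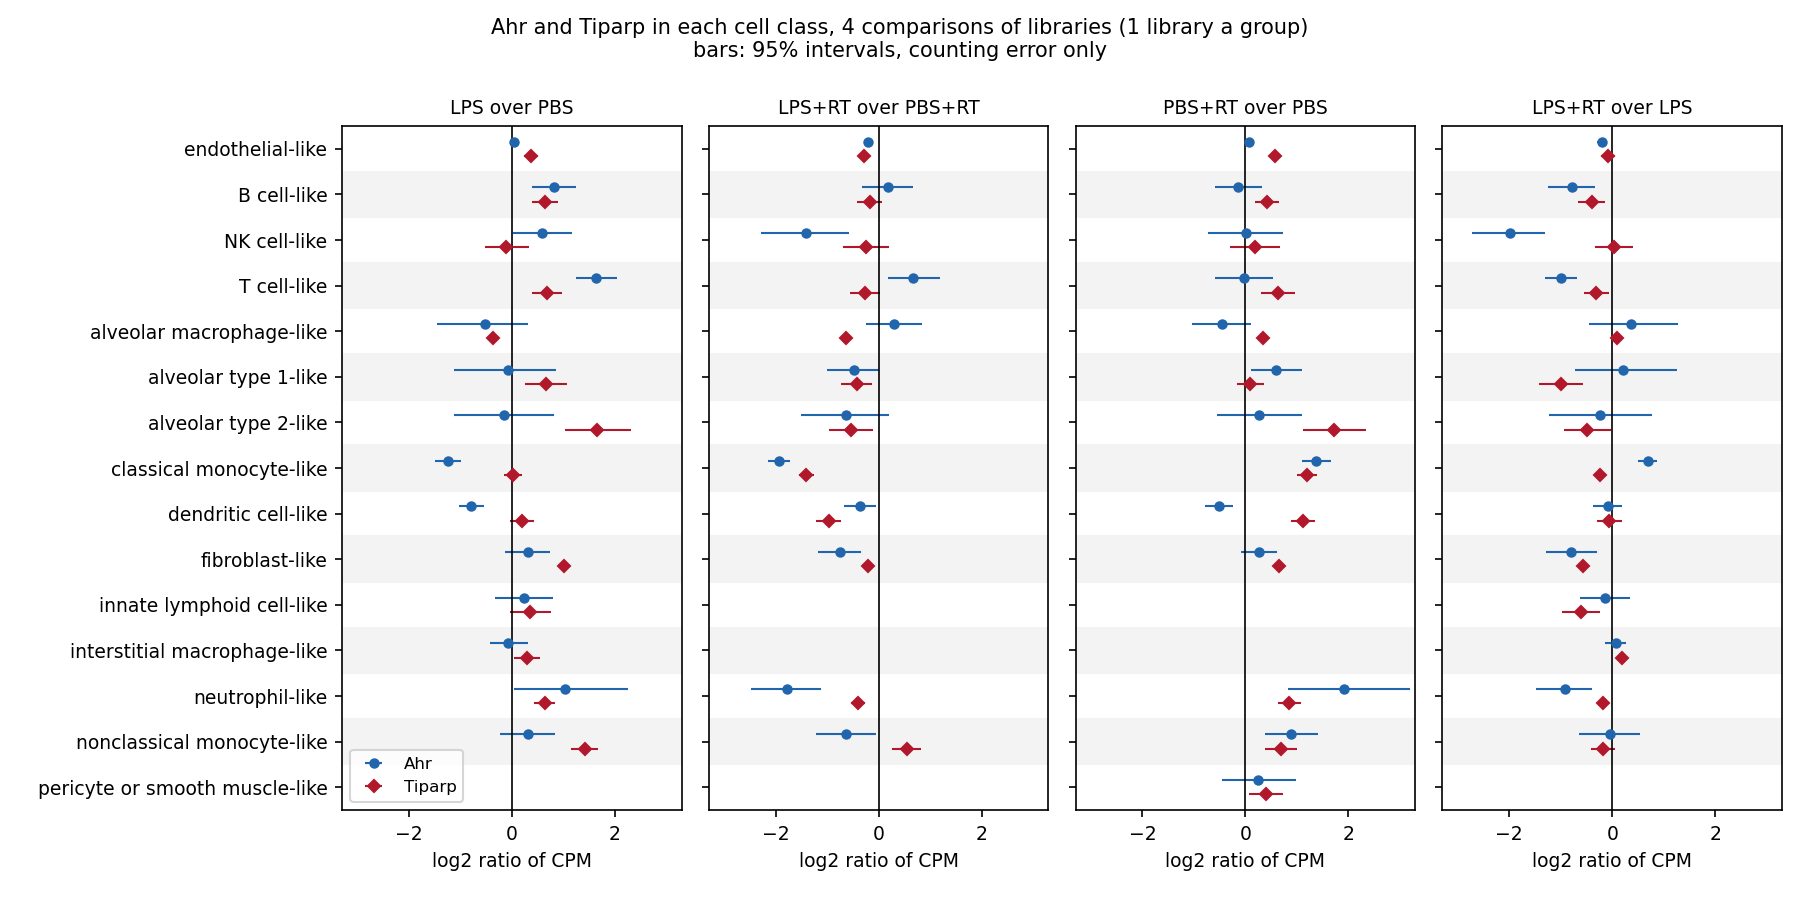
Log2 ratios of CPM of Ahr (circles) and Tiparp (diamonds) in each class that held 50 cells or more in each library and 20 UMIs or more, for 4 comparisons, with 95% intervals of counting error. Tiparp lies right of 0 in most classes of LPS over PBS and PBS+RT over PBS and left of 0 in most classes of LPS+RT over PBS+RT.

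Large Ahr differences were found in myeloid and lymphoid classes. In T cell-like cells, where the receptor takes part in helper cell programmes, Ahr was at 36.1 CPM in LPS+RT, 71.5 in LPS, 22.6 in PBS+RT and 23.03 in PBS. In classical monocyte-like cells it was at 85.3, 53.0, 326 and 126 CPM, but in LPS most of that class lay in cluster 18 (532 of 639 cells, led by Saa3 and Nos2), which held 1 cell of PBS+RT and 0 of PBS. In cluster 28, which all 4 libraries share, Ahr was at 169, 142, 330 and 126 CPM and Tiparp at 329, 499, 585 and 253 CPM in LPS+RT, LPS, PBS+RT and PBS. PBS+RT was the highest library for both genes there, and the lower class level of Ahr in LPS than in PBS was not seen within that cluster. Dendritic cell-like cells had Ahr at 111, 118, 143 and 204 CPM, with PBS highest.

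The other genes of the pathway were read from 4 lists in endothelial-like cells. Of 16 receptor target genes outside the 5, 3 were measured (Nfe2l2, Slc7a5 and Socs2). Of these 3, 0 were called higher in any comparison, and 1 was called lower in LPS than in PBS, where 11% and 10.2% of all measured genes were called higher and lower. That gene, Socs2, a suppressor of cytokine signalling, was at 58.5, 40.2, 46.8 and 63.9 CPM in LPS+RT, LPS, PBS+RT and PBS. Nfe2l2, the regulator of the antioxidant response, was at 198, 176, 188 and 191 CPM. The list's median log2 ratio was -0.12 in both LPS over PBS and PBS+RT over PBS, beside -0.01 and -0.02 over all genes. The other target genes stood under the expression limit. Of them, Cyp2s1, a P450 enzyme gene, had 5, 0, 2 and 15 UMIs in LPS+RT, LPS, PBS+RT and PBS, the glutathione transferase gene Gsta2 had 3, 1, 2 and 11, and the aldehyde dehydrogenase gene Aldh3a1 had 0, 0, 2 and 10. These 3 were named after their values were seen, and all 3 were highest in PBS. In PBS+RT against PBS they were 11.3-fold (2.62 to 102), 8.28-fold (1.81 to 76.8) and 7.52-fold lower (1.60 to 70.6), each from 2 UMIs in PBS+RT. In LPS over PBS the interval of Gsta2 held 1 (0.0056 to 1.66). Cyp2s1 and Aldh3a1, with 0 UMIs in LPS, had only upper bounds there (0.53 and 0.80). Whether RNA of other cells entered the counts of these 3 genes was not tested. Nqo1, a quinone reductase gene, had 31, 17, 81 and 44 UMIs, with a ratio of PBS+RT over PBS of 1.22 (0.837 to 1.81). It was 1.58-fold lower in LPS+RT than in PBS+RT (1.03 to 2.47).

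Of the receptor complex, 5 of 6 genes were measured. In PBS+RT against PBS, 0 were called higher and 1 lower (11.3% and 15% of all genes), and 0 were called in the other 3 comparisons. The lower one, Hsp90ab1, a chaperone that holds the receptor, was at 1048, 1419, 743 and 1302 CPM in LPS+RT, LPS, PBS+RT and PBS. Arnt, the receptor's nuclear partner, was at 68.5, 78.5, 99 and 73.1 CPM. Hsp90aa1 was at 356, 351, 294 and 332 CPM. RNA of Ahr and Arnt was not lower in PBS+RT than in PBS, but both were lower in LPS+RT than in PBS+RT (ratios of 0.864 and 0.692). The part of the gene-length trend in these ratios was not tested.

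Of 10 tryptophan enzyme genes, which make ligands of the receptor, 4 were measured in LPS against PBS and 3 in each other comparison. Ido1, the interferon-induced first enzyme of the kynurenine pathway, was at 2.07 CPM in LPS+RT, 22.7 in LPS, 3.66 in PBS+RT and 2.97 in PBS. LPS stood alone, and Ido1 was 10.96-fold lower in LPS+RT than in LPS (7.12 to 17.5), where 5.94% and 8.65% of all genes were called higher and lower, and 7.64-fold higher in LPS than in PBS. Kyat1 was called lower in LPS than in PBS and in LPS+RT than in PBS+RT, at 7.08 CPM or less in each library. Of 14 other P450 genes and P450 reductase, 9 or 10 were measured, with 1 called higher and 3 lower in LPS against PBS, 1 and 1 in LPS+RT against PBS+RT (7.73% and 6.96% of all genes), 1 and 1 in PBS+RT against PBS, and 2 and 2 in LPS+RT against LPS. The calls were Cyp7b1 higher and Cyp4b1, Cyp2d22 and Cyp2f2 lower in LPS against PBS, Cyp2f2 higher and Cyp4f13 lower in LPS+RT against PBS+RT, Cyp4f13 higher and Cyp2f2 lower in PBS+RT against PBS, and Cyp4b1 and Cyp2f2 higher and Cyp7b1 and Cyp51 lower in LPS+RT against LPS. Cyp4b1, a lung enzyme that oxidises fatty acids and xenobiotics, was at 764, 469, 830 and 959 CPM. Cyp2d22 was at 37.0, 28.1, 49.3 and 44.7 CPM, Cyp4f13 at 16.4, 16.4, 28.3 and 13.04 CPM, and Por, which passes electrons to the P450 enzymes, at 72.8, 72.2, 71.8 and 86.7 CPM. Cyp2f2, an enzyme of airway club cells, was at 6.30, 2.12, 0.82 and 11.7 CPM, and whether RNA of club cells entered these values was not tested.

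The genes whose pattern was most like that of Cyp1a1 over 60 units of class and library, by Pearson's r of log2(CPM + 10) among 8538 genes, were Sox11 (r = 0.69), Pelo (0.67), Wfdc1 (0.67), Npr3 (0.67) and Notch4 (0.66). For the other members r was 0.28 for Ahr, -0.08 for Tiparp, 0.00 for Cyp1b1 and 0.02 for Ahrr. Ahrr was at 2.08 CPM or less in every unit, and Cyp1b1 at 4.87 CPM or less outside fibroblast-like cells. Neither reached the 50 CPM asked of the 8538 genes. The 10 CPM added before the logarithm flattens both, so nothing is read from their r. Units of a library share its preparation and depth, and r is a description. In endothelial-like cells Sox11 was at 121, 87.2, 103 and 165 CPM in LPS+RT, LPS, PBS+RT and PBS, and Npr3 at 152, 114, 161 and 260 CPM. Both were highest in PBS, by far less than Cyp1a1.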

How the data were processed

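The deposited tables hold raw UMI counts per gene and barcode. Per the file headers, the authors made them with Cell Ranger 7.0.1. The submitters' processing notes name build mm10, Seurat 4.3.0 and R 4.2.2. Whether intronic reads were counted is not given in the sources used here. Cells needed 500 UMIs, 200 genes and a mitochondrial share of no more than 10%, and doublets were scored per library with a reimplementation of Scrublet. It removed 242, 148, 110 and 125 cells from LPS+RT, LPS, PBS+RT and PBS, but only 14.5% to 23.0% of simulated doublets passed its threshold, so most doublets may remain. Barcodes shared between libraries were not analysed here. Cells were clustered on 2000 variable genes without the members and list genes (30 components, 15 neighbours, Leiden resolution 1.5). Clusters were named where at least 55% and at least 3 of a class's markers passed (2-fold over the other clusters, in 10% of cells), with thresholds set after the clusters were inspected. Clusters with few UMIs or markers of several classes stayed unnamed.

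UMIs were summed per class and library. Intervals are Poisson for CPM, conditional binomial for ratios and Clopper-Pearson for shares, at 95%, and a zero takes a floor of 3 counts per library for a bound. On simulated counts they were checked to hold the true ratio. The intervals treat UMIs as independent, so this check does not show that they take in spread between cells or animals. The members and lists were chosen with earlier results of these data known. From each list up to 4 genes with at least 20 CPM and the largest ratio are named (1 of the tryptophan enzymes reached 20 CPM), except 1 gene that is not reported here. Kyat1, Slc7a5, Cyp2s1, Gsta2, Aldh3a1, Nqo1, Ramp2, Cyp2f2, Cyp7b1, Cyp51 and Ppbp are outside that rule and were named after their values were seen. Alternatives changed filters, doublets, scaling, resolution, naming, clusters and depth. The work used scipy 1.17.1, leidenalg 0.10.2, scikit-learn 1.9.0, numpy 2.4.6 and matplotlib 3.10.9 under Python 3.11.15.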

Additional observations from a re-analysis of the deposited data

Results flagged for a closer look

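Some genes moved one way in one pair of libraries and the opposite way in the matching pair, with both counting intervals clear of a ratio of 1. With 1 library in each group, none of these differences was tested. In endothelial-like cells the log2 ratio of Tiparp was -0.29 in LPS+RT over PBS+RT and 0.37 in LPS over PBS, and that of Ahr was -0.19 in LPS+RT over LPS and 0.065 in PBS+RT over PBS. Without cluster 6 the Tiparp values were -0.046 and -0.11, and with cells thinned Ahr in PBS+RT over PBS was -0.00010. The genes of their length group had medians of -0.15 and 0.06 in the Tiparp pair and -0.12 and 0.09 in the Ahr pair. The part of this trend was not tested, and the share of all genes with such opposite moves was not counted.

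In fibroblast-like cells the log2 ratio of Cyp1b1 was -0.73 in LPS+RT over PBS+RT and 1.02 in LPS over PBS, and read by irradiation it was -0.88 in LPS+RT over LPS and 0.86 in PBS+RT over PBS. These are the same 4 values of 1 gene, so they count as a single pattern.

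In neutrophil-like cells the log2 ratio of Ahr was -1.79 in LPS+RT over PBS+RT and 1.04 in LPS over PBS, and -0.91 in LPS+RT over LPS and 1.91 in PBS+RT over PBS. At the finer clustering of resolution 3 the value of PBS+RT over PBS was -0.31. The Ahr UMIs were 55 in 9 of 112 cells of PBS+RT and 8 in 5 of 71 cells of PBS, and the shares of cells with a UMI were 8.04% (3.74 to 14.7) and 7.04% (2.33 to 15.7). In cluster 24, which all 4 libraries share, Ahr was at 14.7, 34.1, 56.3 and 12.4 CPM in LPS+RT, LPS, PBS+RT and PBS.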

How the results depend on the processing

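No paired analysis was possible because each group is 1 library, and for the same reason no replicate could be left out. Of 204 alternative values for Cyp1a1, Ahr and Tiparp in endothelial-like cells (12 ratios), 173 stayed within the counting interval and 31 moved outside it. All are log2 ratios, and causes were not tested.

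Cyp1a1 stayed lower under every alternative run, at -5.08 to -4.09 in LPS over PBS, -2.16 to -1.55 in LPS+RT over PBS+RT, -4.23 to -3.57 in PBS+RT over PBS and -1.37 to -0.79 in LPS+RT over LPS. Values outside the interval were -4.09 in LPS over PBS without cluster 9, and in PBS+RT over PBS -4.21, -3.77, -3.57 and -4.23 without clusters 1, 6, 9 and 31.

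Ahr in LPS over PBS, near 0, was -0.049 at resolution 3, -0.061 with cells named by their own score, 0.18 without cluster 6, -0.054 with cells thinned, and -0.044 and -0.10 with clusters 0 and 2 and with clusters 0, 2 and 44. The last pair of settings was chosen after seeing the data. In LPS+RT over PBS+RT Ahr was -0.31 and -0.29 without clusters 6 and 9, in PBS+RT over PBS 0.23 and 0.0026 without clusters 6 and 10 and -0.00010 thinned, and in LPS+RT over LPS -0.070 by own score and -0.054 with clusters 0, 2 and 44.

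Tiparp in LPS over PBS was 0.55 at resolution 3, 0.62 and -0.11 without clusters 1 and 6, and 0.55 with clusters 0, 2 and 44. In LPS+RT over PBS+RT it was -0.046 without cluster 6 and -0.41 with clusters 0 and 2, with or without 44. In PBS+RT over PBS it was 0.73, 0.25 and 0.67 without clusters 1, 6 and 10, and in LPS+RT over LPS -0.23 at resolution 3, 0.32 without cluster 6 and -0.30 with clusters 0, 2 and 44.

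The list genes called higher and lower were 2 and 5 in LPS over PBS (1 and 3 at 20 CPM, 11 and 9 with no limit), 1 and 2 in LPS+RT over PBS+RT (0 and 1, 7 and 10, and 1 lower with TMM scaling), 1 and 2 in PBS+RT over PBS (1 lower at 20 CPM, 5 and 11 with no limit) and 2 and 3 in LPS+RT over LPS (1 and 1, 5 and 12, and 4 higher with TMM scaling). In other classes 608 of 648 alternative values stayed within the counting interval, 37 moved outside it and 3 turned round. A change of sign was counted as turned round only where the main ratio was at least 1.5-fold. The 3 were Ahr in alveolar type 2-like cells in LPS+RT over PBS+RT by own score (0.40), and at resolution 3 Tiparp in neutrophil-like cells in LPS over PBS (-0.26) and Ahr there in PBS+RT over PBS (-0.31). In endothelial-like cells no library held more than 15 UMIs of Cyp1b1 or 8 of Ahrr, which limits what their ratios can show.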
